A study of Homo sapiens with 9 samples.

Results

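The immediate early response (IER) genes IER2, IER3, IER5 and IER5L were followed in Jurkat, a human cell line derived from a T cell leukaemia. Every probe set that the array's annotation pairs with 1 of these 4 gene symbols was taken, which gave 5 of the 54613 probe sets tested and 4 of the 19775 genes with a probe set of 1 symbol. IER2, IER3 and IER5 had 1 probe set each (202081_at, 201631_s_at and 218611_at) and IER5L had 2 (226552_at and 226559_at). In RefSeq (GRCh38.p14) IER2 lies at chr19:13150411-13154911, IER3 at chr6:30743199-30744547, IER5 at chr1:181088700-181092900 and IER5L at chr9:129175552-129178261. RNA was taken 4 h after exposure from 3 groups of 3 samples, labelled as biological replicates. All cells were handled in an electroporation cuvette. The sham samples received no power, the nanosecond electrical pulse (nsEP) samples received 100 pulses of 10 ns at 150 kV/cm, and the heat shock samples were warmed in a water bath as a known stress. Each sample was a bulk culture of 1 cell line, so a smaller number of responding cells and less RNA per cell cannot be told apart.

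Immediate early genes are transcribed within minutes of a stimulus, without new protein synthesis, and the IER genes were named for this behaviour. IER2, IER5 and IER5L code for related nuclear proteins that share a conserved region at the amino terminus. IER5 can bring protein phosphatase 2A (PP2A) to heat shock factor 1 (HSF1), the transcription factor of the heat shock response, and is itself a target of HSF1. IER3, also called IEX-1, is unrelated in sequence and modulates ERK signalling, NF-kB activity and apoptosis.

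The start regions of the genes are shown because IER5 and IER5L carry the same short element that heat shock factors can bind. RefSeq promoter windows (build GRCh38.p14), which run from 250 bases before to 50 bases after a gene's start, were matched for 3 of the 4 genes, all except IER3. The 250 bases upstream are given 5′ to 3′ along the gene, and capitals mark a head-to-head pair of heat shock units, GAANNTTC.
IER5: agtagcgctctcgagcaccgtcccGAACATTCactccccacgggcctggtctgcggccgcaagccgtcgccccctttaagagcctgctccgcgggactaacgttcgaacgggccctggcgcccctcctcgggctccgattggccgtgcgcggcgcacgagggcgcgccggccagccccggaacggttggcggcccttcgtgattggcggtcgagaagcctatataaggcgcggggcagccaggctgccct
IER5L: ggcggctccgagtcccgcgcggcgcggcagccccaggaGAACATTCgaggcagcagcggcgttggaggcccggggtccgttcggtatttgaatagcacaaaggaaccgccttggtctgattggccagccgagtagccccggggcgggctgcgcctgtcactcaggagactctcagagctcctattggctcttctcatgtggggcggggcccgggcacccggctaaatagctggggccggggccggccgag
IER2: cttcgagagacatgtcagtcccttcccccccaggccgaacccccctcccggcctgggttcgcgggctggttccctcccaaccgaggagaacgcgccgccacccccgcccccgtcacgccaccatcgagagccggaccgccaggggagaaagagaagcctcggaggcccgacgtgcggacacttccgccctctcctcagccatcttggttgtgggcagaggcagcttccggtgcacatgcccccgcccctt

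The IER5 stretch lies at chr1:181088450-181088699 on the plus strand, the IER5L stretch at chr9:129178262-129178511 on the minus strand and the IER2 stretch at chr19:13150161-13150410 on the plus strand. Motifs were searched on both strands of the whole window. The capitalised element begins 226 bases upstream of the start of IER5 and 212 bases upstream of that of IER5L, and its 8 bases, GAACATTC, are the same in both. GAANNTTC occurred in 6.77% of the 35116 promoter windows of the table, and GAACATTC itself in 0.834%. The tail-to-tail form TTCNNGAA, found in 7.74% of all windows, had no match in the 3 genes. The CRE TGACGTCA (1.85% of all windows), the CArG box that binds serum response factor (1.29%), TATAAA (11.5%) and the NF-kB site (5.91%) also had no match. GGGCGG, the GC box, which 45.0% of windows hold, occurred 4 times in IER2, 2 times in IER5L and not in IER5. CCAAT boxes, which 34.6% of windows hold and which were added to the search after the sequences had been seen, occurred on the minus strand as a pair of ATTGG in IER5 and in IER5L. In both genes the members of the pair lay 64 bases apart, a spacing found in 18 of the 35116 windows. The spacing and the 8 bases GAACATTC were picked because these 2 windows share them. Their shares tell how common each is, and not how often 2 windows share some spacing or element. A match is a description of these letters and not of binding.

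The arrays held log2 values of the MAS5 signal, the brightness summary of a probe set. The median probe set was 0.18 higher after heat shock than in sham on the log2 scale, so differences after heat shock are also given relative to it. The array of nsEP replicate 3 stood apart, at -173 on the second principal component (14.2% of the variance) against -30.6 to 62.6 for the other arrays, and the differences between nsEP and sham are also given without it. Of the markers of T cells, 12 of 12 lay above the middle of all probe sets in each group, beside 2 of 4 myeloid and 2 of 5 B cell markers in sham and after nsEP, and 3 of 4 and 3 of 5 after heat shock.

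After heat shock all 5 IER probe sets rose, and after nsEP 0 of 5 passed the test. The rises after heat shock ran from 1.83 on the log2 scale for IER2 to 4.16 for IER5L, or from 3.55-fold to 17.8-fold. In this comparison 4.17% of all probe sets were called in either direction, and 1.81% as higher, at an adjusted p under 0.05 in limma. After nsEP the differences ran from -0.14 for IER5 to 0.94 for IER5L, where 0.0586% of all probe sets were called. At an unadjusted p under 0.05 limma gave 3 of the 5 probe sets after nsEP, of IER2, IER3 and IER5L, beside 7% of all probe sets, and the methods' t-test gave 0 of the 5, beside 6.09% of all probe sets. When the exposures were set against each other, all 5 probe sets were lower after nsEP than after heat shock, beside 4.96% of all probe sets called in either direction and 2.65% called as lower. Both exposures were compared with the same 3 sham arrays.

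**Figure D1:**
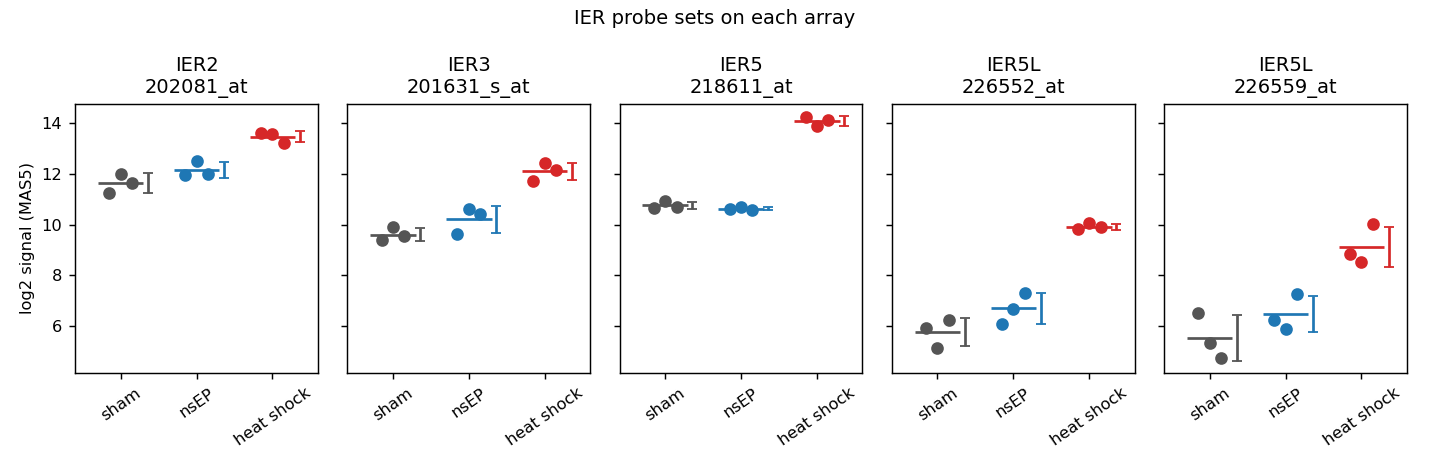
Log2 MAS5 signal of the 5 IER probe sets (vertical axis) on each of the 9 arrays, by group; dots are arrays, horizontal lines are group means and bars beside them are ± 1 SD (n = 3). The heat shocked arrays lie above all sham and nsEP arrays in every panel, and IER5 has means of 10.76 in sham and 10.63 after nsEP.

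IER5, the partner of PP2A and HSF1, had the smallest adjusted p of the 4 genes for heat shock and for the contrast between the exposures. Its log2 signal was 10.66, 10.92 and 10.70 on the sham arrays, 10.62, 10.67 and 10.58 on the nsEP arrays and 14.25, 13.86 and 14.13 on the heat shock arrays. The sham and nsEP ranges overlapped narrowly, and the heat shocked arrays lay far above both. The means were 10.76 ± 0.14 in sham, 10.63 ± 0.05 after nsEP and 14.08 ± 0.20 after heat shock (SD, n = 3 each). In limma IER5 was higher after heat shock by 3.32 ± 0.15 log2 units (here and below ± after a difference is its SE), or 9.97-fold (adjusted p = 6.72e-08), and by 3.14 relative to the median probe set. Ranked by log2 difference this was rise 204 of all probe sets, at a bright signal. After nsEP the difference was -0.14 ± 0.15 (adjusted p = 0.925), and -0.11 without nsEP replicate 3. With each array left out it ran from -0.18 (without sham replicate 1) to -0.05 (without sham replicate 2). Its 95% interval ran from -0.45 to 0.18, or from 0.730-fold to 1.13-fold. IER5 was lower after nsEP than after heat shock, at a log2 ratio of -3.45 ± 0.15 (adjusted p = 1.28e-07).

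IER5L, the relative of IER5 that shares the element shown in capitals, was called as higher after heat shock at both of its probe sets. At 226552_at the log2 signal was 5.91, 5.15 and 6.23 in sham, 6.10, 6.68 and 7.31 after nsEP and 9.82, 10.05 and 9.89 after heat shock. At 226559_at it was 6.52, 5.34 and 4.76 in sham, 6.23, 5.89 and 7.26 after nsEP and 8.84, 8.52 and 10.03 after heat shock. Both probe sets placed every heat shocked array above all others, while sham and nsEP overlapped and nsEP replicate 3 was the highest nsEP array.

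The 226552_at probe set rose by 4.16 ± 0.36 after heat shock (SE, adjusted p = 4.12e-05) and the 226559_at probe set by 3.59 ± 0.53 (adjusted p = 0.00204). Relative to the median probe set these were 3.98 and 3.41. In sham both means, 5.76 ± 0.56 and 5.54 ± 0.90 (SD, n = 3), lay below the middle of all probe sets, where the signal was not shown to be above background, so the fold depends on how dim signals are treated. With 32 signal units added before the log2 the rises were 3.52 and 2.88, both still called, beside 3.29 for IER5.

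After nsEP IER5L had 0.94 ± 0.36 at 226552_at (adjusted p = 0.609) and 0.93 ± 0.53 at 226559_at (adjusted p = 0.797). The intervals, from 0.16 to 1.71 and from -0.22 to 2.07, allow rises up to 3.26-fold and 4.19-fold. Without nsEP replicate 3 the differences were 0.63 and 0.53, and with each array left out in turn they ran from 0.63 to 1.23 at 226552_at and from 0.53 to 1.42 at 226559_at (the latter without sham replicate 1, while 0.54 was left without sham replicate 3), with no call. IER5L was lower after nsEP than after heat shock, at a log2 ratio of -3.22 ± 0.36 at 226552_at (adjusted p = 0.000298) and of -2.66 ± 0.53 at 226559_at (adjusted p = 0.0116). The second of these calls ended without nsEP replicate 2 (-2.38, adjusted p = 0.0569) or without heat shock replicate 3 (-2.21, adjusted p = 0.0688).

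**Figure D2:**
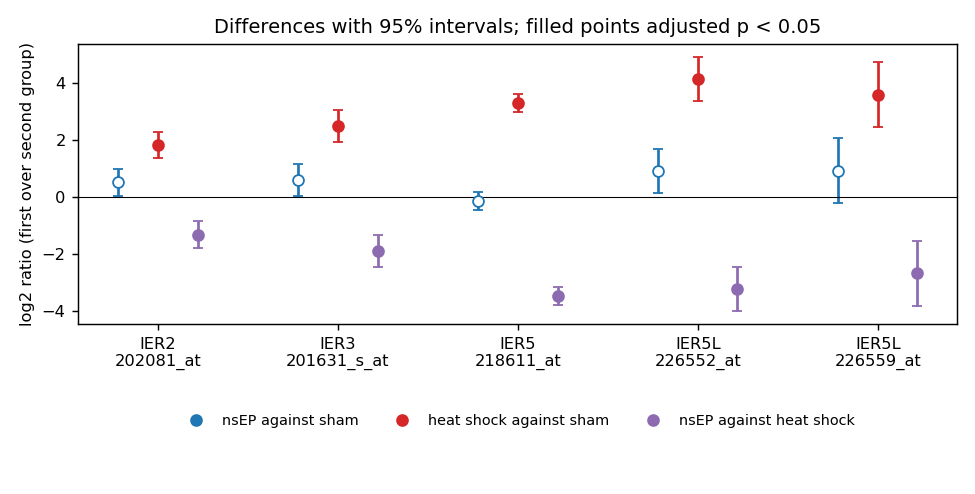
Log2 ratio of the first over the second group (vertical axis) for the 5 IER probe sets in the 3 comparisons; points are limma estimates, bars are 95% intervals and filled points passed an adjusted p of 0.05. The heat shock points lie between 1.83 and 4.16, and the nsEP points are all open.

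IER2, a growth factor inducible nuclear protein, was already bright in sham and had the smallest rise. Its log2 signal was 11.24, 12.00 and 11.65 in sham, 11.97, 12.50 and 11.98 after nsEP and 13.59, 13.57 and 13.21 after heat shock. A single sham array reached into the nsEP range, and heat shock did not overlap with either group. The means were 11.63 ± 0.38, 12.15 ± 0.30 and 13.46 ± 0.21 (SD, n = 3). Heat shock raised IER2 by 1.83 ± 0.21 on the log2 scale, 3.55-fold (adjusted p = 0.000429), or 1.65 above the median probe set. After nsEP the difference was 0.52 ± 0.21, 1.43-fold with an interval from 1.04-fold to 1.97-fold (adjusted p = 0.644), and 0.60 without nsEP replicate 3. With each array left out it ran from 0.32 (without sham replicate 1) and 0.34 (without nsEP replicate 2) to 0.70 (without sham replicate 2), with no call. The level after nsEP was 2.48-fold lower than after heat shock, at -1.31 ± 0.21 (adjusted p = 0.00366). When the arrays were scaled to the poly-A spike-in transcripts, which moved the median probe set to -0.83 after heat shock, the rise of IER2 was 0.82 and was no longer called (adjusted p = 0.276), and its difference between the exposures was -0.38 (adjusted p = 0.643).

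IER3, the modulator of ERK signalling and apoptosis, lay between IER2 and IER5 in its rise after heat shock. Its log2 signal was 9.38, 9.90 and 9.55 in sham, 9.61, 10.62 and 10.40 after nsEP and 11.72, 12.41 and 12.14 after heat shock. Of the nsEP arrays, replicate 1 fell within the sham range and the other two lay above it. The means were 9.61 ± 0.26, 10.21 ± 0.53 and 12.09 ± 0.35 (SD, n = 3), with the widest spread after nsEP.

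Heat shock raised IER3 by 2.48 ± 0.26, 5.59-fold (adjusted p = 0.000188), or 2.30 above the median probe set. After nsEP the difference was 0.60 ± 0.26, 1.52-fold with an interval from 1.03-fold to 2.24-fold (adjusted p = 0.670), and 0.51 without nsEP replicate 3. With each array left out it ran from 0.40 (without nsEP replicate 2) to 0.90 (without nsEP replicate 1), with no call. IER3 was 3.68-fold lower after nsEP than after heat shock, at -1.88 ± 0.26 (adjusted p = 0.00120). With arrays scaled to the spike-ins the rise after heat shock was 1.47 (adjusted p = 0.0547) and the difference between the exposures -0.95 (adjusted p = 0.226), neither of them called.

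The order of the group means was sham, nsEP, heat shock for IER2, IER3 and IER5L, and nsEP, sham, heat shock for IER5. In each gene the lower 2 groups overlapped and their difference did not pass the test. All heat shocked arrays lay above all sham arrays for 5 of 5 probe sets, as for 16.6% of all probe sets, and above all nsEP arrays for 5 of 5, as for 15.1%. No IER probe set separated nsEP from sham completely, which 11.6% of all probe sets did in either direction. With the study's thresholds (p at most 0.05 and a log2 ratio of at least 2) the methods' t-test passed 0 of the 5 after nsEP, beside 0.394% of all probe sets as higher, and 4 of the 5 after heat shock, beside 1.84%. IER2, with a log2 ratio of 1.83, fell short of the threshold on size.

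**Figure D3:**
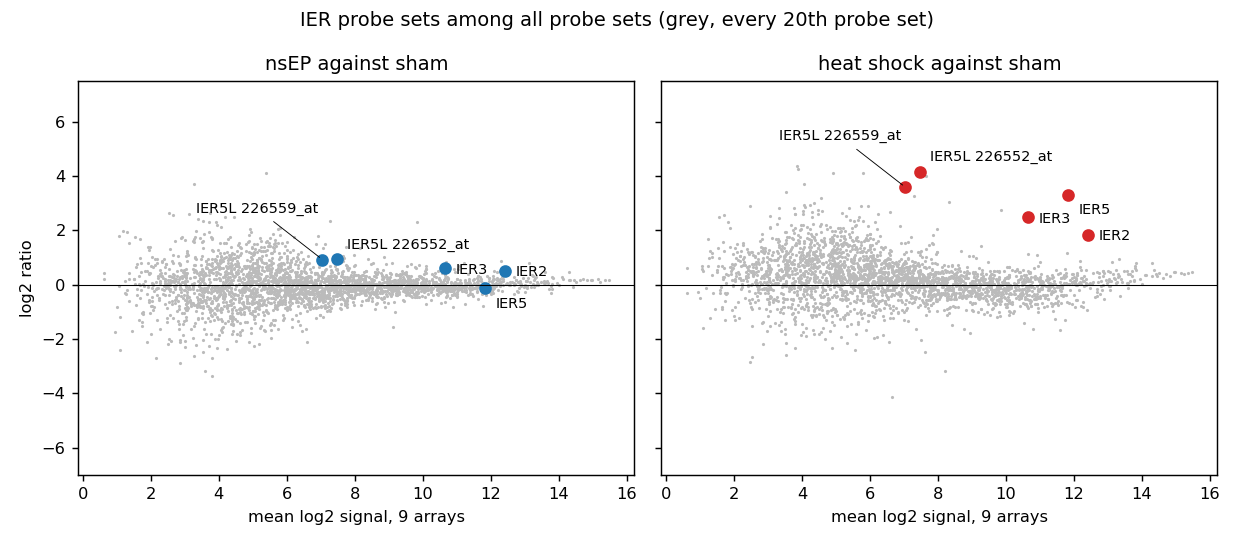
Log2 ratio against mean log2 signal over the 9 arrays for nsEP (left) and heat shock (right) against sham; coloured dots are the IER probe sets and grey dots an evenly spaced subset of all probe sets. After nsEP the IER probe sets lie between -0.14 and 0.94, within the grey cloud or at its edge, and after heat shock they lie above nearly all grey dots of similar signal.

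The members were also set against each other within each array, at the brightest probe set of a gene. A total of 12 differences were computed, 6 pairs of genes in 2 comparisons, with an exact two-sided permutation test that cannot go below p = 0.1 at 3 against 3 arrays (0.171 after Benjamini-Hochberg adjustment over the 12), so none could pass. After heat shock the log2 difference IER2 minus IER5 moved by -1.49, IER2 minus IER5L by -2.33, IER3 minus IER5 by -0.84, IER3 minus IER5L by -1.67 and IER5 minus IER5L by -0.84, and the sham and heat shocked arrays did not overlap in any of these (exact p = 0.1). With 32 signal units added, an alternative chosen after seeing the data, IER5 minus IER5L moved by -0.22 with overlap (exact p = 0.7) and IER3 minus IER5L by -1.08 (exact p = 0.1). IER2 minus IER3 moved by -0.65 with overlap (exact p = 0.2). After nsEP the differences IER2 minus IER5 and IER3 minus IER5 rose by 0.66 and 0.74 with no overlap (exact p = 0.1), while IER2 minus IER3 moved by -0.08 (exact p = 0.8). Both separated pairs after nsEP include IER5, so they are not independent. The share of all gene pairs that separate sham from either exposure in this way was not computed. IER5L overlapped with each of the others, at -0.42 for IER2 minus IER5L, -0.33 for IER3 minus IER5L and -1.07 for IER5 minus IER5L (exact p = 0.6, 0.7 and 0.2). With 32 units added IER2 minus IER5L was -0.14 and IER3 minus IER5L -0.07.

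The gene whose pattern over the 9 arrays lay nearest to that of IER5 was DNAJB4, a cochaperone of the HSP40 family. Likeness was the root mean square (RMS) difference of log2 signals over the 9 arrays, each probe set centred on its own mean, over 12235 genes at or above the middle signal. The RMS difference from IER5 was 0.25 for DNAJB4, 0.31 for BAG3, a cochaperone of HSP70, and 0.33 for DNAJB1, another HSP40 cochaperone, where IER5 itself varied by 1.60 around its mean. Their log2 ratios were 3.49, 2.96 and 3.14 after heat shock and 0.33, 0.14 and 0.40 after nsEP. These arrays also chose the genes, so the ratios describe the likeness and are given with no test.

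The nearest patterns to the other members were of other kinds. For IER5L they were the histone genes H2AC17 (RMS difference 0.45) and H3C2 (0.54) and, between them, RHOB, a small GTPase of the actin cytoskeleton (0.48), with log2 ratios of 3.99, 3.19 and 4.09 after heat shock. For IER3 they were MGARP, a mitochondrial protein (0.30), VEGFA, a vessel growth factor (0.32), and AHNAK, a large scaffold protein (0.33), with ratios of 2.31, 2.65 and 2.40. For IER2 they were S100P, a calcium binding protein (0.26), ZNF436, a zinc finger protein (0.27), and CHRNB2, a receptor subunit for acetylcholine (0.27), with ratios of 1.97, 1.47 and 1.31. These 12 genes nearest to a member all had a promoter window except VEGFA. GAANNTTC occurred in windows of DNAJB1 and H3C2, beside 6.77% of all windows. TTCNNGAA occurred in windows of DNAJB4, S100P, ZNF436 and H3C2, beside 7.74% of all windows. The other genes with a window, BAG3 among them, matched neither form. DNAJB1 had 3 windows and DNAJB4 and ZNF436 had 2 each, which gave them more chances to match.

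**Figure D4:**
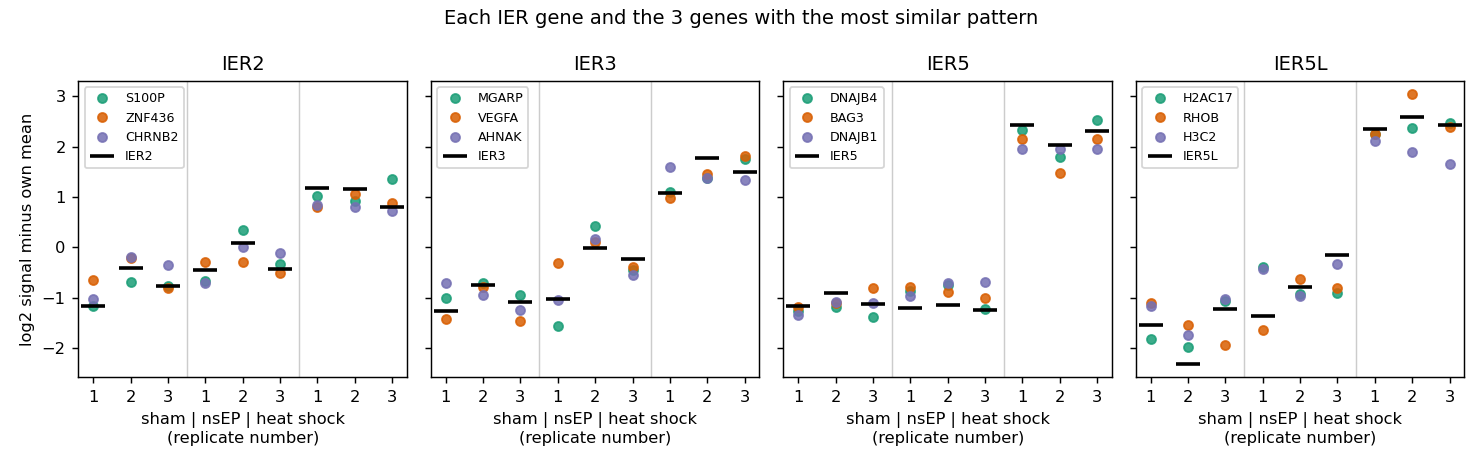
Log2 signal minus the own mean of the probe set (vertical axis) on the 9 arrays in the order sham, nsEP and heat shock, for each IER gene (black bars) and the 3 genes with the most similar pattern (dots). DNAJB4, BAG3 and DNAJB1 lie near IER5, at RMS differences of 0.25 to 0.33.

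The genes around the IER family were counted in lists, each gene at its brightest probe set. HSF1 and its chaperone targets, the pathway that IER5 acts on, had 7 of 12 measured genes higher and 0 lower after heat shock. Beside this, 1.81% of all probe sets were called as higher. With a gene counted at any of its probe sets, 9 were higher. The median log2 ratio was 1.39 against 0.14 for all genes. HSPA6, a strictly inducible HSP70, rose by 8.77, HSPA1L, another HSP70, by 5.11 and DNAJB1 by 3.14. HSPA6 and HSPA1L were below the middle of all probe sets in sham, where signals were not shown to be above background, and with 32 units added their rises were 8.24 and 3.42. After nsEP 0 of the 12 passed in limma, and 2 at an unadjusted p under 0.05, beside 7% of all probe sets. The methods' t-test gave 0 after adjustment, and the median was 0.15 against -0.02. HSPA6 had 1.39 ± 0.30 (adjusted p = 0.208).

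Of 30 other growth factor inducible immediate early genes, 7 were higher and 0 lower after nsEP, beside 0.0586% of all probe sets called in either direction. The median was 0.60 against -0.02 for all genes. FOS, a subunit of AP-1, rose by 7.27 ± 0.40, EGR1, a zinc finger transcription factor, by 4.94 ± 0.27 and FOSB, another AP-1 subunit, by 3.58 ± 0.34. After heat shock 17 of the 30 were higher and 0 lower, beside 1.81% of all probe sets called as higher. The median after heat shock was 1.99 against 0.14 for all genes. FOS, RGS2, a brake on G protein signalling, and FOSB rose by 9.20, 6.87 and 6.57 after heat shock. FOS and FOSB were dim in sham too, and with 32 units added their rises were 5.02 and 2.34 after nsEP and 6.92 and 5.14 after heat shock, all still called. Between the exposures 14 of the 30 were lower after nsEP, as all 4 IER genes were, beside 2.65% of all probe sets. Whether the IER genes differ from these genes in their response to nsEP was not tested.

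Among the factors that drive immediate early genes (SRF, its ELK and MRTF partners and CREB factors), 3 of 8 fell after heat shock. Of the 8, 0 rose, and 4.17% of all probe sets were called in either direction. ELK4, a partner of SRF, fell by 1.36 on the log2 scale (SE 0.19, adjusted p = 0.00129), CREB1 by 1.09 (adjusted p = 0.00626) and MRTFB by 0.66 (adjusted p = 0.0329). After nsEP 0 of the 8 passed in limma, and 0 at an unadjusted p under 0.05.

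The subunits of PP2A, the phosphatase that IER5 binds, had 0 of 13 genes called in limma after either exposure (0 at an unadjusted p under 0.05 after nsEP and 4 after heat shock, where 18.1% of all probe sets were under it, and 0 by the methods' t-test after adjustment in both). PPP2R2D, a regulatory subunit, had -1.49 ± 0.40 after heat shock (adjusted p = 0.0576) and was higher after nsEP than after heat shock by 1.94 ± 0.40 (adjusted p = 0.0144). PPP2R5A, another regulatory subunit, had 0.54 ± 0.26 after nsEP (adjusted p = 0.740).

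The NF-kB subunits and inhibitors, which act upstream of IER3, had 0 of 12 called after either exposure at their brightest probe sets. At any probe set 1 gene was called as lower after heat shock. Between the exposures 1 was called as higher after nsEP, and at any probe set also 1 as lower, beside 4.96% of all probe sets in either direction. At an unadjusted p under 0.05 limma gave 0 after nsEP and 2 after heat shock, beside 7% and 18.1% of all probe sets. RELB had 0.88 ± 0.41 after nsEP (adjusted p = 0.725) and REL -0.52 ± 0.18 after heat shock (adjusted p = 0.132). The ERK cascade had 0 of 10 called, with 0 and 2 at an unadjusted p under 0.05 in limma, beside the same shares. SPRY2, a feedback inhibitor, had 0.46 ± 0.27 after nsEP (adjusted p = 0.804). RPS6KA3, a kinase below ERK, had -0.63 ± 0.20 after heat shock (adjusted p = 0.105). The cell cycle genes of the CDC25 and p53 group had 6 measured members. After heat shock GADD45A, a growth arrest gene, rose by 1.51 ± 0.22 and MDM2, the ligase of p53, fell by 0.94 (SE 0.16). These were the 2 calls of the list after heat shock, beside 4.17% of all probe sets, and 3 were called with 32 signal units added. The largest log2 ratio of the list after heat shock, 2.23, was not called. After nsEP 0 passed, and 1 was under an unadjusted p of 0.05, beside 7% of all probe sets.

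**Figure D5:**
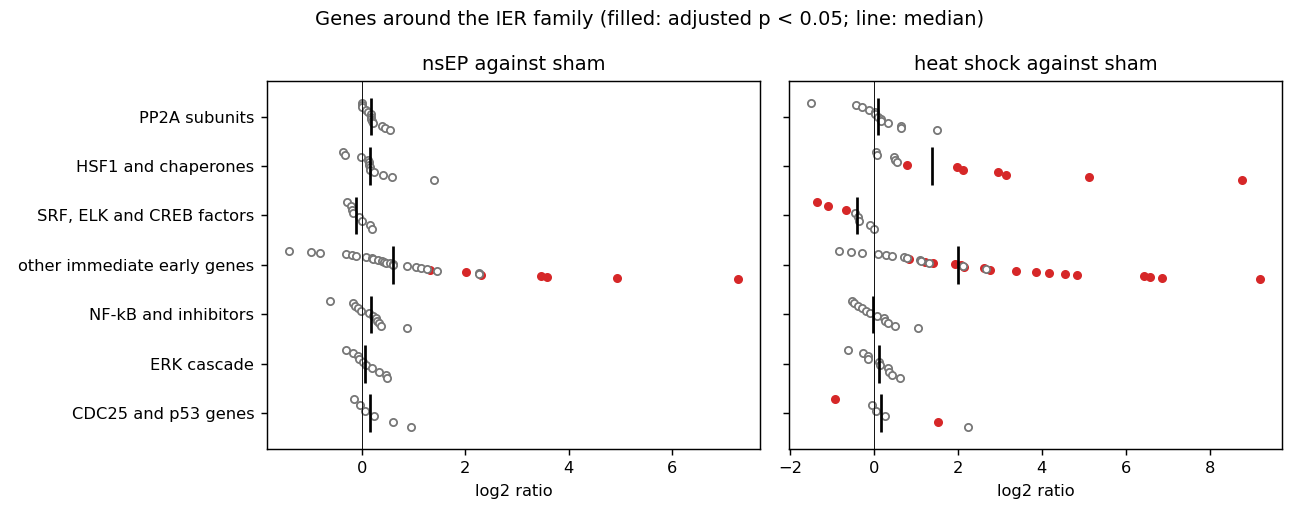
Log2 ratio (horizontal axis) of the genes in 7 lists around the IER family after nsEP (left) and heat shock (right) against sham; filled red points passed an adjusted p of 0.05, open points did not, and black lines are list medians. The HSF1 list has 0 filled points after nsEP and 7 after heat shock, and the list of other immediate early genes 7 and 17.

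Markers of other cell types were followed by their sums over each array. The summed signal of 12 T cell markers ran from 70955 to 76307 in sham, 69555 to 97180 after nsEP and 66994 to 88015 after heat shock. The sum of 4 myeloid markers ran from 240.3 to 304 in sham, 242 to 343 after nsEP and 509 to 617 after heat shock, and that of 5 B cell markers from 620.0 to 838, 721 to 896 and 828 to 1084. CD14, the defining myeloid marker, went from a log2 signal of 2.29 in sham, below the middle of all probe sets, to 7.07 after heat shock. Its rise was 2.16 with 32 units added, and it was the 1 of 4 myeloid markers called. Of the 12 T cell markers, TRAT1, CD2 and CD28 were called as lower after heat shock and 9 were not called. Among all probe sets 4.17% were called in either direction after heat shock. The 12 log2 ratios ran from -2.16 to 0.38, with a median of -0.09 against 0.14 for all genes. The part of these shifts in the rise of the IER genes was not tested.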

How the data were processed

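The table deposited by the authors held log2 values of MAS5 signals, a tool named in the submitters' processing notes, from Affymetrix HG-U133 Plus 2.0 arrays. The authors ran MAS 5.0, and the trimmed mean signal was 500.1 on every array. Dim probe sets were kept. Detection calls were not used here. After 62 control probe sets were set aside, the 3 group means of all 9 arrays were fitted in limma 3.58.1 (R 4.3.3, eBayes with trend). Tests were two-sided, with Benjamini-Hochberg adjustment over 54613 probe sets, and calls were made below an adjusted p of 0.05. Symbols came from the platform table, updated through gene identifiers to RefSeq. The fit was tested on simulated data. The labels call the replicates biological but name no separate cultures, so p-values measure the spread between these samples, which may be partly technical. The number of arrays limits the precision.

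The members and lists were chosen with earlier results of these data known. Named genes were all member probe sets, the 3 nearest patterns to each gene, and from each list up to 3 called members with the largest ratio, and otherwise 1 or 2 of the lowest p, as values. Alternatives covered the variance model, samples, normalization, scaling, dim signals, array weights, a replicate block, the methods' t-test and each array left out. Adding 32 signal units for the pairs of members and the lists was chosen after seeing the data. Replicate numbers did not pair the samples (correlations of deviations from -0.07 to 0.05). Python 3.11.15 searched the promoters, and the planned comparison of proteins was not run.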

Additional observations from a re-analysis of the deposited data

How the results depend on the processing

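No difference of an IER probe set changed sign under any alternative, and after nsEP 0 of 5 were called under all of them. For the adjusted methods' t-test this was fixed, since it called 0 of all probe sets after nsEP. Counts of called IER probe sets after heat shock, 5 of 5 in the reported fit, were 3 with arrays scaled to the spike-ins and 2 by the adjusted methods' t-test. Between nsEP and heat shock, also 5 of 5, they were 3 without the variance trend, 2 with spike-in scaling, 1 by the adjusted methods' t-test and 3 at the study's thresholds. The calls lost after heat shock were IER2 (0.82) and IER3 (1.47) with spike-in scaling, IER2 (1.83), IER3 (2.48) and IER5L 226559_at (3.59) by the adjusted methods' t-test, and IER2 (1.83) at the study's thresholds. Those lost between the exposures were IER2 (-1.31) and IER5L 226559_at (-2.66) without the trend, and IER2 (-0.38), IER3 (-0.95) and IER5L 226559_at (-1.73) with spike-in scaling. The adjusted methods' t-test lost IER2 (-1.31), IER3 (-1.88) and IER5L 226552_at (-3.22) and 226559_at (-2.66), and the study's thresholds IER2 (-1.31) and IER3 (-1.88). The cause was not tested. With single arrays left out, IER5L 226559_at ran from -3.06 to -2.21 between the exposures and lost its call in 2 of 9 cases, while the other 9 called differences kept their calls and the 5 between nsEP and sham gained none. With the replicate block the IER calls were 0, 5 and 5 and those of all probe sets 31, 2268 and 2544, so the block changed no IER call. Over all probe sets the 32 calls after nsEP became 7 without the trend, 12 with spike-in scaling, 14 on 6 arrays, 52 with array weights, 63 without dim probe sets, 421 at the study's thresholds, 0 by the adjusted methods' t-test and 15 to 36 with an array left out. The 2276 calls after heat shock ran from 377 (adjusted methods' t-test) to 4571 (arrays centred on their medians), and the 2707 between the exposures from 124 to 4792 under the same alternatives. Few arrays and the dim sham signal of IER5L limit these values.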
